A study of Mus musculus with 5 samples.

Results

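Messenger RNAs of solute carriers, the membrane proteins that move amino acids, ions, sugars, metals and metabolites across cell membranes, were followed through an RNA immunoprecipitation of the mouse hippocampus. A gene was included when its symbol begins with Slc or Slco and at least 1 called region lay on it in any of 4 deposited region lists. By that rule 63 genes were found, all protein-coding, among 4727 genes with a region on them. The mouse annotation (GENCODE M21) holds 383 protein-coding genes of this kind, so 16.4% of them had a region, beside 16.7% of all 21938 protein-coding genes.

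The study asked which mRNAs bind Cyfip1 in the hippocampus. RNA-protein complexes were pulled down from C57BL/6 hippocampi with an anti-HA antibody in 2 knock-in mice and in 1 wild-type mouse, and with control IgG in 2 knock-in samples whose titles carry the same mouse numbers. The labels call the animals knock-in without describing the allele, so that Cyfip1 carries the HA tag is read from the antibody and the study's design, and age and sex are not given. Each list sets the HA library of 1 knock-in mouse against 1 control library, either the IgG library of that mouse or the wild-type library, which serves as control in both wild-type lists. Over regions with the same ends, the HA reads of a mouse are identical in its IgG list and its wild-type list, so values over the 2 controls are not independent. As a check of the labels, the Cyfip1 gene had 6101 HA reads beside 67 of IgG in mouse 1, and 6186 beside 115 in mouse 2.

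CYFIP1 works with FMRP, the protein lost in fragile X syndrome, to repress translation, and is also a subunit of the WAVE complex that controls actin. Solute carriers set the chemical surroundings of a synapse: they clear glutamate and GABA, refill synaptic vesicles, return glutamine to neurons, extrude calcium and acid, and bring in glucose, choline and metals. In the hippocampus the glutamate carriers Slc1a2 and Slc1a3 are known as astrocyte genes and Slc17a7 loads glutamate into the vesicles of pyramidal and granule neurons.

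In all, 13 Slc genes were present in every list, and 11 of these 13 had a stretch that was called in all 4 lists. In 10 of the 11 that stretch held at least 90 bases of 1 coding exon. The first 90 such bases are printed here for 9 genes, 1 window each, because they come from carrier sequence listed against both controls in both mice. A listed region is not by itself enriched. Over IgG in mouse 1, the authors' adjusted p was 0.569 for the region with the Slc4a8 window and 0.329 for that of Slc38a1. It was 0.225 for Slc45a4, 0.189 for Slc11a2 and 0.0548 for Slc1a3, and below 0.05 for the other printed windows. Bases come from the GENCODE M21 transcripts on GRCm38 (mm10), written 5′ to 3′ on the mRNA strand. Capitals mark AGGA and TGGA, the tetramers reported for FMRP, searched on the mRNA strand only, with overlaps allowed.
Slc11a2 (chr15:100403874-100403963, minus strand): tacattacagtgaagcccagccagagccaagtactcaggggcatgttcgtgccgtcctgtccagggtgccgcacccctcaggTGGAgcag
Slc1a3 (chr15:8645863-8645952, minus strand): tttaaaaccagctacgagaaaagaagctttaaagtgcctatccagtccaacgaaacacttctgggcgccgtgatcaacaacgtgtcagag
Slc24a4 (chr12:102266345-102266434, plus strand): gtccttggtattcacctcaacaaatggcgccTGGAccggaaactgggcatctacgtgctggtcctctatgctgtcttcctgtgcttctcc
Slc25a29 (chr12:108826951-108827040, minus strand): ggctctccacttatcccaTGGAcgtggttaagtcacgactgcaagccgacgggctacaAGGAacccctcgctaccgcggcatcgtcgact
Slc26a4 (chr12:31525507-31525596, minus strand): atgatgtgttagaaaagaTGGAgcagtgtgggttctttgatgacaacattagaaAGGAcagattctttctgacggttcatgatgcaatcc
Slc38a1 (chr15:96578773-96578862, minus strand): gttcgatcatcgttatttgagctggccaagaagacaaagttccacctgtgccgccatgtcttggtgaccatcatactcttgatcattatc
Slc39a9 (chr12:80679475-80679564, plus strand): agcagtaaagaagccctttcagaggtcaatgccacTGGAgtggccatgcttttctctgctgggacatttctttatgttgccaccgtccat
Slc45a4 (chr15:73586996-73587085, minus strand): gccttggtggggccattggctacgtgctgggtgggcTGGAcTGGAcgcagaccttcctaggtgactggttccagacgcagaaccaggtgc
Slc4a8 (chr15:100814450-100814539, plus strand): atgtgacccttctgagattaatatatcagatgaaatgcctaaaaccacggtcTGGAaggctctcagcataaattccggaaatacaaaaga
An AGGA or TGGA was found in 7 of the 10 first windows of 90 bases, all 7 among those printed. With further windows of the same genes it was 7 of all 15. The stretches were not searched outside these windows. The same search in 90 coding bases of the longest coding exon of 21792 mouse genes found one in 74.2%. The Slc45a4 window held TGGA 2 times with a single base between them. Slc1a3 and Slc38a1 held none in these windows. The deposited lists give reads per region and not per base, so the reads cannot be placed on these letters.

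Carrier genes with a region lay on few chromosomes. Chromosomes 1, 4, 6, 12 and 15 carried 48 of the 63 genes, out of 93 annotated there, and the X chromosome carried 9. Of the other 6, 5 lie on chromosome 7 and had a region only over wild type in mouse 1, and 1, Slc1a2 on chromosome 2, had regions only over IgG in mouse 2. The remaining 12 chromosomes with annotated carriers hold 226 of them and gave no member. No list holds more than 60 regions on any of those chromosomes, where it can hold over 500 on the covered ones, so a carrier missing there cannot be read as absent from the precipitate. On chromosome 15, 64.7% of carriers and 58.2% of all coding genes had a region, and on chromosome 12 the shares were 63.6% and 67.3%. On the X chromosome they were 69.2% and 29.4%, with 9 of 13 carriers, and on chromosome 6 they were 34.8% and 47.2%. The sources used here do not say why the lists cover these chromosomes.

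**Figure D1:**
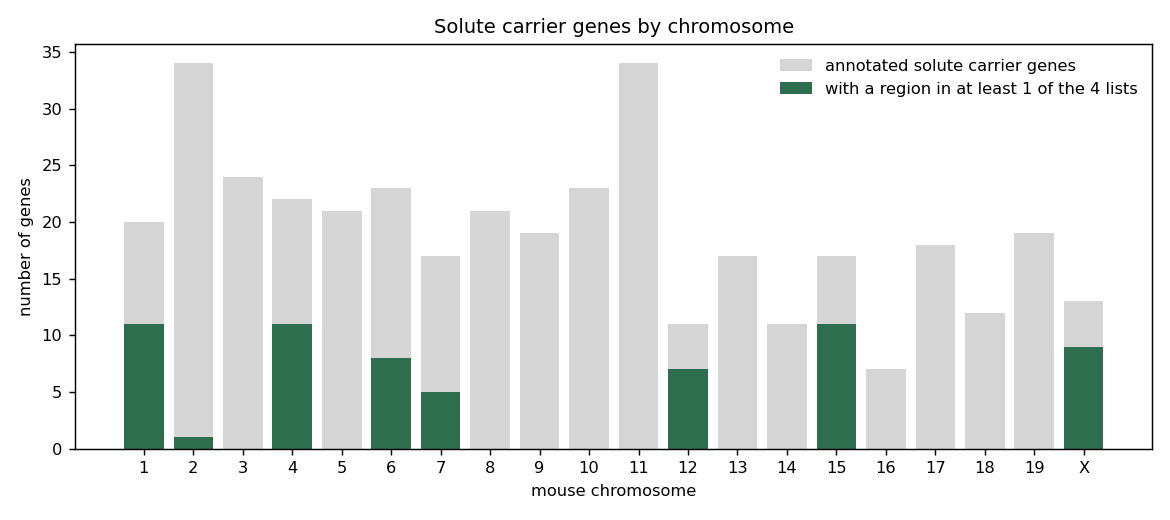
Number of annotated solute carrier genes on each mouse chromosome (grey bars) and of those with a called region in at least 1 of the 4 lists (green bars). The green bars sit on chromosomes 1, 4, 6, 7, 12, 15 and X, with a single gene on chromosome 2.

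The lists held 4191 and 1920 regions over IgG and 5355 and 5362 over wild type, in the order of mouse 1 and mouse 2. Reads inside regions came to 99575 and 64055 for HA and 25747 and 31872 for IgG, and over wild type to 154408 and 166760 for HA and 181527 and 180957 for the control. Depth outside regions is unknown. Carriers with a region numbered 40, 19, 49 and 52 in that order. All 6 pyramidal and granule neuron markers that lie on the 7 covered chromosomes had a region, as had both oligodendrocyte markers and all 3 astrocyte markers there. Of the 4 endothelial markers there, only Slc2a1 had a region, with 5 HA reads. A region was present for 1 of 3 interneuron markers, 2 of 4 choroid plexus markers (Enpp2 and Kcnj13) and 0 of 2 microglial markers (C1qa and C1qb) on these chromosomes. Of all coding genes, 29.4% on the X chromosome to 67.3% on chromosome 12 had one, and the part of other cell types in the results was not tested.

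In what follows a fold is a gene's HA to control ratio, with reads of all its regions in a list added up, relative to the median ratio of that list's regions with at least 20 reads. That median ratio was 2.89 and 0.947 in the IgG lists. In the wild-type lists it was 1.41 and 1.75. A fold of 1 therefore means the ratio of a typical region and not an equal number of reads. A bracketed range is a 95% Clopper-Pearson counting interval for 1 pair of libraries. Reads copied by PCR do not each stand for a molecule, so these ranges, and the floor used for a control without reads, hold counting error alone. Beyond a number the labels say nothing of the mice, so spreads and p-values over 2 mice may hold technical variation only. A carrier counted as high in a list at 2-fold or more and as low at 0.5-fold or less, with at least 20 reads. In all, 42 of the 63 carriers reached 20 reads in some list and 21 did not.

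The comparison of anti-HA with IgG asked which RNAs came down with anti-HA beyond the capture by beads and unspecific antibody. No carrier was high in both mice and none was low in both, out of 7 that had 20 reads in each. Among all 392 genes that could be judged this way, 6.12% were high in both mice and 15.8% were low in both. In mouse 1 alone none of 18 carriers was high and 3 were low, where 9.66% and 20.1% of 1097 genes were. In mouse 2 alone 2 of 15 were high and 2 were low, beside 8.76% and 18.9% of 719 genes. The median carrier fold was 0.909 and 1.01 in the 2 mice, next to 0.839 and 0.822 over all genes.

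The comparison with the wild-type mouse, precipitated with the same anti-HA antibody, gave 3 carriers that were high in both mice out of 21, among them the iron importer Slc11a2 and the neuronal glucose carrier Slc2a3. None was low in both. Over all 1194 genes the shares were 6.11% and 3.18%, and 3 of 21 rests on few genes. In mouse 1 alone 5 of 27 carriers were high, against 13.4% of 1942 genes, and in mouse 2 alone 7 of 30 were high, against 11.6% of 1677 genes. No carrier was low in either mouse, where 4.22% and 4.59% of genes were. The median carrier fold was 1.27 and 1.24, next to 1.15 and 1.10 over all genes. The single wild-type library is the control in both lists, so its own variation is unknown and the 2 mice do not test it.

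These counts rest on the scale. With each list scaled by its pooled ratio, all HA reads over all control reads, log2 folds against IgG shift by -0.42 and -1.09. Those against wild type shift by 0.73 and 0.93. On that scale 11 of 21 carriers were high in both mice over wild type, as were 38.6% of all genes, and 2 of 7, Slc11a2 and Slc24a4, were low in both over IgG, as were 44.6% of all genes. None was high over IgG (5.1% of genes). The read minimum counted too. Without it, 9 of 41 carriers were high over wild type (12% of genes) and none was low (1.7%), while over IgG none of 13 was high (5.13%) or low (9.76%). At 50 reads, Slc2a3 alone of 11 carriers was high over wild type (2.49% of genes) and none was low (5.87%), while over IgG neither of 2 was high (13.3%) or low (18.9%).

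**Figure D2:**
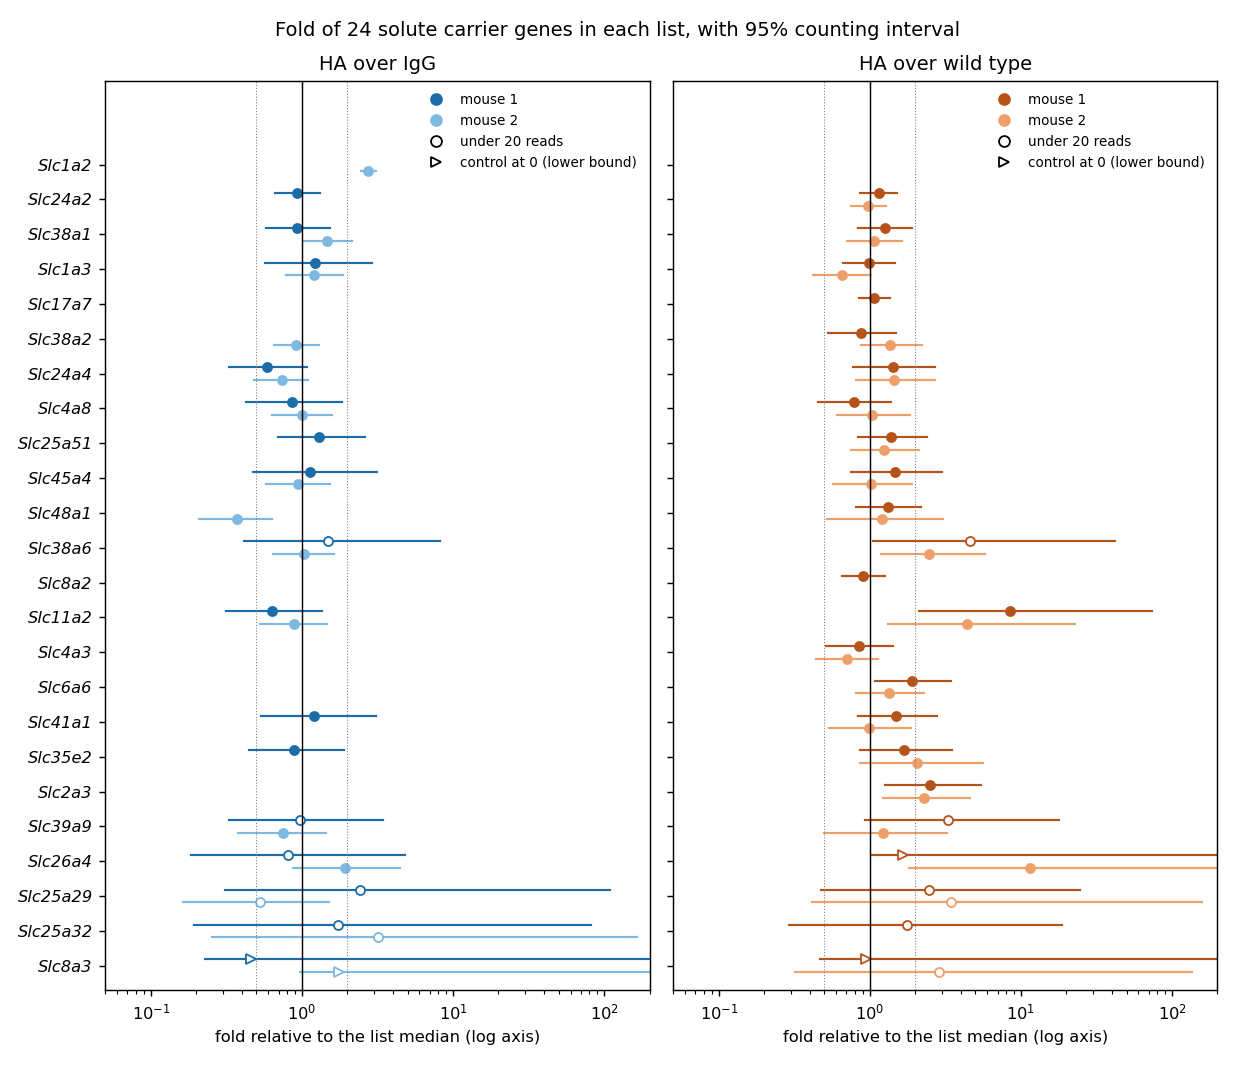
Fold of the 24 solute carrier genes described one by one, over IgG (left) and over wild type (right), on a log axis. Points are 1 list each, with dark and light colours for mouse 1 and 2 and lines for 95% counting intervals that run off the axis where the control has few reads; open points have under 20 reads, triangles are lower bounds with a control of 0, and carriers with 3 or fewer HA reads and a control of 0 are not drawn. Over wild type Slc11a2 and Slc2a3, with at least 20 reads, lie above 2 (dotted line) in both mice. So do the open points of Slc25a29, and Slc38a6 with an open point in mouse 1. Over IgG no gene drawn lies above 2 in both mice.

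Among carriers of transmitters, Slc1a2, the glutamate carrier that clears most synaptic glutamate, held more reads than any other solute carrier. It had 1065 HA and 410 IgG reads in mouse 2, in 3 regions of 2.4, 3.6 and 2.2 kb that follow each other from chr2:102781401-102783800 to chr2:102788401-102790600 (mm10). All 3 touch the 3' untranslated region and the first also touches coding sequence, and they held 130 HA reads per kb, where the 15 carriers with 20 reads in that list had a median of 2.91 per kb. The fold was 2.74 (2.45 to 3.08). No other list had a region on Slc1a2, so no second mouse can be set beside it. The list holds 50 regions on chromosome 2, and regions off chromosomes 12 and 15 had a median ratio of 11.2 in that list, so that on the scale of those regions Slc1a2 stood at 0.233-fold. Whether Slc1a2 is high in mouse 2 thus turns on the choice of scale.

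Slc1a3, the other astrocyte glutamate carrier, was seen in every list. Mouse 1 had 32 HA and 9 IgG reads, mouse 2 had 48 and 42, at 1.23-fold (0.573 to 2.93) and 1.21-fold (0.781 to 1.87). Against wild type it had 65 and 47 and then 48 and 42 reads, at 0.979-fold (0.663 to 1.46) and 0.653-fold (0.423 to 1.01). All 4 intervals include 1, so no departure of Slc1a3 from a typical region was resolved. In mouse 2 the same 3 regions held 42 reads in the IgG library and 42 in the wild-type library.

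Slc17a7, the vesicular glutamate carrier VGLUT1, was called only over wild type in mouse 1, with 184 HA and 122 control reads and a fold of 1.07 (0.845 to 1.35). Its single region spans the whole gene and also Pih1d1 and a microRNA gene, so its reads cannot be assigned to 1 gene. Slc6a6, which takes up taurine, had 48 and 18 and then 54 and 23 reads over wild type, at 1.89-fold (1.08 to 3.45) and 1.34-fold (0.810 to 2.29). The interval for Slc6a6 left out 1 in mouse 1 only. Of the 24 genes listed as transmitter carriers, 10 lie on the covered chromosomes. A region was present for 8, Slc1a2 on chromosome 2 among them. Of all coding genes on the covered chromosomes, 29.4% (X) to 67.3% (chromosome 12) had one. With at least 20 reads in both mice, none of the 8 was 2-fold in both over either control. Over all genes judged this way, 6.12% were over IgG and 6.11% over wild type.

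Of 33 amino acid carriers of the plasma membrane, 8 lie on the covered chromosomes and 4 had a region. On these chromosomes 29.4% (X) to 67.3% (chromosome 12) of all coding genes had one. With at least 20 reads, 1 of 3 was at least 2-fold over wild type in mouse 2, where 11.6% of 1677 genes were. None was in the other 3 lists, where 8.76% to 13.4% of genes were. At most 3 of these carriers could be judged in any list. Slc38a1, which supplies neurons with glutamine, had 67 HA and 25 IgG reads (mouse 1), then 71 and 51 (mouse 2), at 0.926-fold (0.577 to 1.53) and 1.47-fold (1.01 to 2.15). Against wild type it had 69 and 39 and then 71 and 38 reads, at 1.25-fold and 1.07-fold. Slc38a2, a related glutamine carrier, had 67 HA and 77 IgG reads in mouse 2, at 0.919-fold (0.652 to 1.29). Against wild type it stood at 0.879-fold and 1.37-fold, on either side of 1 and with both intervals across it.

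Slc38a6, a less studied member of the same family, had 13 HA and 3 IgG reads (mouse 1), then 39 and 40 (mouse 2), the latter at 1.03-fold (0.645 to 1.64). Against wild type it had 13 and 2 reads in mouse 1 and 39 and 9 in mouse 2, at 4.60-fold (1.04 to 42.0) and 2.48-fold (1.18 to 5.81). Both intervals over wild type left out 1, while mouse 1 stayed under 20 reads. In exon sequence, 35.5% of the 50-base words of annotated Slc38a6 transcripts also occur in transcripts of genes elsewhere, so a part of its reads may be of uncertain origin.

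Among carriers of sodium, protons, calcium and bicarbonate, Slc24a2, a potassium-dependent sodium-calcium exchanger of neurons, held the most reads that were spread over several lists. It had 132 HA and 49 IgG reads in mouse 1, at 0.931-fold (0.666 to 1.32), and 137 and 85 and then 154 and 90 over wild type, at 1.14-fold and 0.978-fold. Slc24a4, its relative, had 34 and 20 and then 43 and 62 reads over IgG, at 0.587-fold (0.329 to 1.08) and 0.733-fold (0.485 to 1.10). Against wild type it had 34 and 17 and then 43 and 17, at 1.42-fold (0.770 to 2.70) and 1.45-fold (0.807 to 2.70). Slc24a4 was thus below the list median over IgG and above it over wild type in both mice, with all 4 intervals across 1. With regions inside the gene only, the mean log2 fold of Slc24a4 over IgG turned from -0.61 to 0.38, and over wild type it was 0.67. Those inside regions held under 20 reads in every list. Over wild type they held no control read, so 0.67 rests on a floor of 3 reads and is a lower bound.

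Slc4a8, which exchanges sodium bicarbonate for chloride at glutamatergic terminals, had 30 and 12 and then 40 and 42 reads over IgG, at 0.864-fold (0.429 to 1.85) and 1.01-fold (0.636 to 1.59). Against wild type it stood at 0.787-fold and 1.04-fold. Slc4a3, an anion exchanger, was seen over wild type only, at 0.850-fold and 0.702-fold, and Slc8a2, a sodium-calcium exchanger, only in the wild-type list of mouse 1, at 0.906-fold (0.652 to 1.26). Slc8a3, a relative of Slc8a2, was present in every list with 4 or 5 HA reads and at most 1 control read, too few to place it.

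Slc26a4, the anion exchanger pendrin, had 7 HA and 3 IgG reads (mouse 1), then 20 and 11 (mouse 2), the latter at 1.92-fold (0.877 to 4.44). Over wild type it had 7 and 0 reads in mouse 1, at least 1.65-fold with the control set to a floor of 3 reads, and 20 and 1 in mouse 2, at 11.4-fold (1.83 to 474). The interval in mouse 2 reflects the single control read.

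Among metal carriers, Slc11a2 stood differently against the 2 controls. Slc11a2, the divalent metal carrier DMT1 that moves iron out of endosomes, had 24 HA reads against 2 of wild type in mouse 1, and 23 against 3 in mouse 2. That is 8.50-fold (2.11 to 74.2) and 4.38-fold (1.32 to 22.8), a mean log2 fold of 2.61 ± 0.68 (SD, n = 2). Over IgG it had 24 and 13 reads and then 30 and 36, at 0.638-fold (0.312 to 1.36) and 0.880-fold (0.524 to 1.47), a mean log2 fold of -0.42 ± 0.33 (SD, n = 2). Its ratio to IgG was within counting error of a typical region, while the wild-type library held few reads. Its common stretch, chr15:100403791-100412340 (mm10), touches 13 annotated exons, and no other gene shares its regions.

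Slc41a1, a magnesium carrier, stood at 1.21-fold (0.537 to 3.07) over IgG in mouse 1 and at 1.49-fold and 0.984-fold over wild type. Slc39a9, a zinc importer, had 14 and 5 and then 17 and 24 reads over IgG and 14 and 3 and then 17 and 8 over wild type. Its folds were 0.967 and 0.748 over IgG and 3.30 (0.922 to 17.9) and 1.21 (0.497 to 3.25) over wild type, with every interval across 1. They were lower over IgG than over wild type in both mice, as was the median fold of all genes. In mouse 2 the zinc importer Slc39a10 had 35 HA and 10 wild-type reads, at 2.00-fold (0.969 to 4.53), and in mouse 1 it stood at 1.24-fold. Slc39a10 was named after its values were seen, as a carrier that was high in a single list.

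Of sugar and lipid carriers, Slc2a3, the glucose carrier GLUT3 of neurons, was seen over wild type only. It had 39 HA and 11 control reads in mouse 1 and 52 and 13 in mouse 2, at 2.51-fold (1.26 to 5.44) and 2.29-fold (1.23 to 4.58), a mean log2 fold of 1.26 ± 0.10 (SD, n = 2). In each mouse the reads lie in 1 region, chr6:122727801-122740000 and chr6:122727801-122742600 (mm10), that takes in coding exons and the 3' end. Slc2a3 alone of the 3 high carriers had 50 reads in both lists. In mouse 2 the IgG list holds only 4 regions on chromosome 6, where in mouse 1 it holds 615, and Slc2a3 had a region over IgG in neither mouse. Slc45a4, a sugar carrier of the same broad group, stood at 1.14-fold and 0.945-fold over IgG and at 1.47-fold and 1.02-fold over wild type, with all 4 intervals across 1. Slc44a1, a choline carrier that was named after its values were seen, had 17 and 3 and then 16 and 2 reads over wild type, at 4.01-fold (1.16 to 21.4) and 4.57-fold (1.07 to 41.0), and did not reach 20 reads in mouse 2. Over IgG in mouse 1 it had 15 and 3 reads.

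Among carriers of organic ions and vitamins, Slc48a1, which carries heme out of endolysosomes, had 19 HA and 54 IgG reads in mouse 2, at 0.372-fold (0.208 to 0.637), the lowest fold of any carrier with 20 reads in that list. Over wild type the same region held 19 HA and 9 control reads, at 1.21-fold (0.520 to 3.03), so the low value in mouse 2 stands against IgG alone. In mouse 1 Slc48a1 had no region over IgG, and over wild type it had 50 and 27 reads in a region shared with Hdac7, at 1.31-fold (0.805 to 2.18). Other carriers that were low in a single mouse, named after their values were seen, included Slc10a1 and Slc35a2 over IgG in mouse 1 and Slc52a2 over IgG in mouse 2. Slc10a1, a bile acid carrier known from liver, had 26 HA and 42 IgG reads in a region shared with Srsf5, at 0.214-fold (0.126 to 0.357), and 26 and 9 over wild type, at 2.05-fold (0.929 to 4.96). The region of Slc35a2 is 61.3 kb long and spans 4 other genes.

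Of 54 mitochondrial carrier symbols 47 are in the annotation, 16 lie on the covered chromosomes, and 10 had a region. Of 33 nucleoside and nucleotide sugar carriers 7 lie on those chromosomes and 6 had a region. Of all coding genes, 29.4% on the X chromosome to 67.3% on chromosome 12 had one. Slc25a51, a mitochondrial NAD carrier, had 49 and 13 reads over IgG in mouse 1, at 1.30-fold (0.696 to 2.62), and stood at 1.39-fold and 1.24-fold over wild type, but at least 94.2% of its HA reads in each list lie in regions shared with a small RNA gene. Slc25a29, a carrier of basic amino acids, had 6 or 7 HA reads in each list, and Slc25a32, a folate carrier, 3 or 5. Slc35e2 stood at 0.893-fold over IgG in mouse 1 and against wild type at 1.69-fold (0.858 to 3.52) and 2.04-fold (0.858 to 5.59), with 87.1% to 88.0% of HA reads in shared regions. None of these intervals left out 1.

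Of the 8 functional groups of carriers, none had a member that was high in both mice over IgG. Over wild type Slc11a2 among 6 metal carriers and Slc2a3 among 9 sugar and lipid carriers with a region did so. Of all genes judged, 6.12% were high in both mice over IgG and 6.11% over wild type. Sodium pumps set the ion gradients that many carriers use. Of 12 genes for these pumps and for kinases that act with the carriers, 5 lie on the covered chromosomes and all 5 had a region. On these chromosomes 29.4% (X) to 67.3% (chromosome 12) of all coding genes had one. With at least 20 reads, none was 2-fold away from the list median in either direction. In the lists that held them, 9.66% to 13.4% of all genes were high and 4.22% to 20.1% low. Over wild type, the kinase gene Wnk1 stood at 0.833-fold and 0.764-fold. Of 26 symbols for proteins with a carrier fold but no Slc symbol, 25 are in the annotation, 10 lie on the covered chromosomes and 7 had a region. Those with 20 reads over wild type ranged from 0.817-fold to 1.27-fold.

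Over regions that have the same ends in the IgG and wild-type list of a mouse, all 3 libraries can be set side by side, although none is scaled for its size. In mouse 1, 11 of 17 carriers had more wild-type than IgG reads and 5 had fewer. In mouse 2 no carrier had more wild-type reads, and 11 of 13 had more IgG reads. The same turn was present over all genes, of which 29.8% in mouse 1 and 90.7% in mouse 2 had more IgG than wild-type reads. The 5 carriers of mouse 1 with fewer wild-type reads included Slc10a1, Slc11a2, Slc24a4 and Slc39a9. Slc11a2 had the lowest ratio of wild-type to IgG reads among the 17, at 0.154. In mouse 2 its ratio was 0.130 and only Slc26a4, at 0.0909, was lower.

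**Figure D3:**
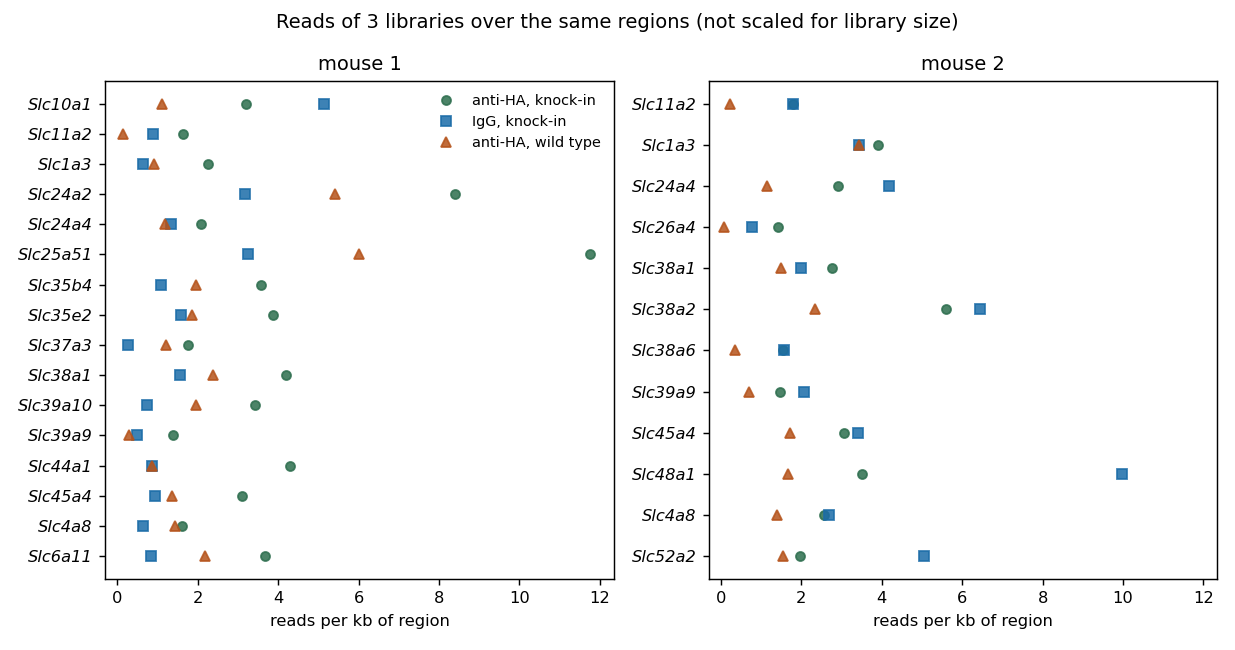
Reads per kb of region in the HA (circles), IgG (squares) and wild-type (triangles) libraries over regions shared by both lists of a mouse, for 16 carriers of mouse 1 and 12 of mouse 2 with at least 20 reads in the 3 libraries together. Values are not scaled for library size: HA lies under the IgG square for Slc11a2 and Slc38a6 of mouse 2, and IgG lies to the right of wild type in 11 of the 12 carriers drawn for mouse 2 and in 4 of the 16 for mouse 1.

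A test across all genes was possible over IgG. With limma, the mouse as a block and Benjamini-Hochberg adjustment at 0.05, 29 of 392 genes (7.40%) were higher and 95 (24.2%) lower in HA than in IgG, relative to the list median. Of the 7 carriers tested, 0 passed, and 1 had an unadjusted p under 0.05, where 45.4% of all genes had. That carrier was Slc24a4, with a log2 difference of -0.61 ± 0.17 (SE, n = 2 mice) and a limma adjusted p of 0.0759. Slc11a2 differed by -0.43 ± 0.21 with a limma adjusted p of 0.208, and Slc1a3 by 0.26 ± 0.15 with 0.275. Slc38a1, Slc4a8 and Slc45a4 differed by 0.21, -0.12 and 0.02. The sources used here do not say how regions were called, so the choice of regions may itself depend on the HA reads tested. The block fit has 1 residual degree of freedom per gene. Without the block the SE of these 7 genes lay above 1 on the log2 scale and no gene was lower. That fit compares reads over regions that differ between the 2 mice, so its SE also holds the difference in covered length.

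The scale decided the side of most of the 7. Centred on the median of the genes tested, 2 of the 7, among them Slc38a1 (log2 0.60, adjusted p = 0.0374), were higher by limma, while with the pooled ratio Slc24a4 (log2 -1.37), Slc11a2 (log2 -1.18) and Slc4a8 (log2 -0.87) were lower. Slc24a4 and Slc11a2 kept a negative difference under all 4 scalings, and no other gene of the 7 kept its sign. With regions inside the gene only, the mean log2 fold of Slc24a4 was 0.38. That value rests on under 20 reads in each mouse, too few to settle its sign there.

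**Figure D4:**
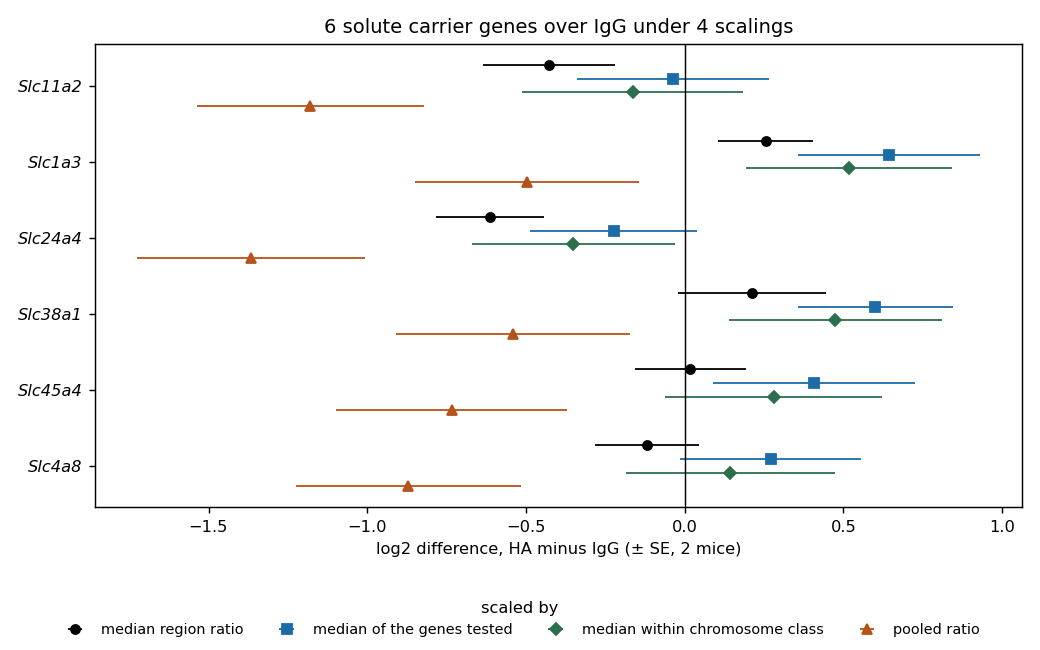
Log2 difference between HA and IgG reads for 6 carriers with at least 20 reads in both mice, as limma estimates with SE, under 4 ways of scaling the lists. Slc11a2 and Slc24a4 stay to the left of 0 under all 4, and the pooled ratio moves every gene drawn to lower values than the median region ratio.

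Over wild type a test was possible only on regions with the same ends in both lists, in which the single wild-type library is assumed to vary like the HA pair. Of 94 such regions with 20 reads, 8 (8.51%) were higher and 20 (21.3%) lower by limma at an adjusted p of 0.05. Of the 2 that lie on carriers 0 passed, and 0 had an unadjusted p under 0.05. The Slc24a2 region differed by -0.49 ± 0.60 (SE) with a limma adjusted p of 0.600. Slc11a2 and Slc2a3 had no region with the same ends in both wild-type lists, so their high folds were not tested.

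By number of regions, their place on carrier genes was close to that on all genes. Of 235 distinct carrier regions 88.1% touched an exon of the gene, next to 90.04% of 12114 over all genes, and 34.9% touched the untranslated end after all coding sequence, next to 36.2%. By reads the shares differed. With each distinct region taken once, regions that touch that end held 78.9% of carrier HA reads and 53.5% over all genes. The 1065 HA reads of Slc1a2 are among them. In the lists without Slc1a2 the carrier share was higher as well. It was 60.9% beside 49.0% over IgG in mouse 1, and 70.9% beside 64.4% and 69.5% beside 46.0% over wild type. By the adjusted p in the authors' deposited table, 57.0% and 86.0% of carrier regions over IgG and 88.1% and 85.7% over wild type were below 0.05. The same shares over all genes were 62.8%, 87.3%, 83.3% and 79.1%.

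The assignment of reads limits what can be said of single carriers. For 30 of the 63 at least 1 region also lies on another gene, and for 18 this holds in every list in which they appear. In annotated transcripts, 56 of the 63 share under 1% of their 50-base words with genes elsewhere. Slc38a6 and Slc25a5 share over 10%, and Slc25a5, whose relatives include many processed copies, shares 33.8%.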

How the data were processed

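RNA bound in hippocampal lysates was sequenced for 50 cycles, single-end, in 5 libraries, with strand not stated, per the labels' protocols. TopHat, TopHat2 and the build GRCm38 (mm10) are named in the submitters' processing notes, and rtracklayer 1.28.9 wrote the 4 region lists, per the file headers. Each deposited list gives, per called region and annotated gene, a read count for HA and for 1 control, with the authors' adjusted p-value. Which tool called the regions is not stated in the labels or headers. Depth outside regions is unknown.

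Reads were summed per gene over regions inside, overlapping or including it. Genes were carried forward from 20 reads, and 3 reads stood in for a control of 0. The test was limma 3.58.1 in R 4.3.3 on log2(reads + 0.5), with a mean trend in the variance. The planned edgeR test was replaced because the read columns hold region reads whose counting is not described. The mouse was a block because the titles give HA and IgG libraries the same mouse number. The HA and IgG differences between the mice correlated at 0.685 over 392 genes. Both used reads summed over regions that differ between the mice, so covered length enters both and the value cannot test the pairing. In a chi-square test of counting error only, the HA pair gave p = 0.583 over 96 regions of the IgG lists and p = 1.16e-06 over 122 regions of the wild-type lists, and the IgG pair p = 4.92e-15 over 58 regions. The pair of wild-type control columns gave a chi-square p = 1.85e-05 over 100 regions. Of the 193 values they share by position, 189 are identical, so a low p here does not show separate libraries. Both mice were kept. The test was also run on simulated counts with a small fixed variation and a known scale. That run cannot show how the test behaves on these data, where calls turn on the scale.

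Described one by one are the 20 carriers with most reads, those in all 4 lists, those 2-fold or more or 0.5-fold or less in both mice, and those tested; some genes under this rule are not reported here. Members, lists and tests were chosen with earlier results of these data known. Alternatives changed the scale, the read minimum, the regions used, the block and the mice.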

Additional observations from a re-analysis of the deposited data

How the results depend on the processing

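Over IgG, the 29 higher and 95 lower genes became 13 and 0 without the mouse as a block, 8 and 3 with scaling within chromosome classes, and 10 and 1 of 190 with regions on 1 gene only. They became 76 and 84 when centred on the genes tested, 24 and 266 with the pooled ratio, and 25 and 26 of 156 with regions inside the gene only. Centring, voom weights and the use of inside regions in this test were chosen after seeing the data. Among the carriers, no call was made without the block. The log2 difference of Slc1a3 turned to -0.50 with the pooled ratio and -0.10 with inside regions. Slc38a1 turned to -0.54 with the pooled ratio. Slc45a4 turned to -0.73 with the pooled ratio, -0.04 with voom weights, and -0.03 with inside regions and with regions on 1 gene only. Slc4a8 turned to 0.27 when centred and 0.14 within chromosome classes. Slc24a4 passed with regions below the authors' adjusted p of 0.05 (limma adjusted p = 0.0469). With 1 mouse left out, values ranged from -0.13 to 0.55 for Slc38a1, -0.08 to 0.11 for Slc45a4 and -0.25 to 0.01 for Slc4a8. Over wild type on identical regions, 8 higher regions became 36 with the pooled ratio and 31 of 189 without a read minimum. There Slc24a2 turned to 0.33 with the pooled ratio and ranged from -1.20 to 0.22 with 1 mouse left out, and 1 of the 2 carrier regions passed with the pooled ratio. The 3 carriers high in both mice over wild type became 11 with the pooled ratio, 9 without a read minimum and 1 at 50 reads, and 5 to 7 with 1 mouse left out. Over IgG, carriers low in both mice became 2 with the pooled ratio, and with 1 mouse left out 2 to 3 were low and 0 to 2 high. The cause of these changes was not tested. TMM factors and DESeq2 were not run, since the unit of the read columns could not be settled as counts. Read numbers under 20 leave 21 of the 63 carriers without a usable fold.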
